A study of Mus musculus with 4 samples.

Results

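The cytochrome P450 genes were described in single cells of the mouse trachea after basal cell transplantation. Members were chosen by name alone, as symbols made of Cyp, a family number, a subfamily letter and a gene number, with Cyp51 left out. This gave 94 genes of the 30907 features, and 19 of them reached at least 10 CPM (UMIs, or captured RNA molecules, per 1000000 of the same sum) in a sum over a library or over a cell class of at least 50 cells. These 19 are described one by one. Each of the 4 groups held 1 library from 1 of 2 mice, so no value has a replicate and differences were not tested.

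P450 enzymes are haem proteins that insert oxygen into their substrates, mostly in the membrane of the endoplasmic reticulum and in some cases in mitochondria. They receive electrons from partner proteins such as cytochrome P450 reductase (Por) and adrenodoxin (Fdx1). Some turn over drugs, toxicants and other foreign compounds, and others act on fatty acids, sterols, bile acids, vitamin D or retinoic acid. In rodent airways, secretory (club) cells are known for P450 enzymes that activate inhaled compounds such as naphthalene.

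In both recipients the tracheal surface was first damaged with the detergent polidocanol (2%), and 6000000 cells were given 5 hours later. The iBC recipient carries the strain label 129 X1/S1, was given basal cells derived from mouse embryonic stem cells (iBCs) and was examined after 192 days. The primary recipient carries the label C57BL/6, received primary basal cells, and was taken at 69 days. Live Calcein Blue-positive cells were sorted into GFP-positive, donor-derived and GFP-negative, endogenous libraries. Endogenous libraries therefore came from injured, transplanted tracheas, and a control trachea named in the protocol was not analysed here. Donor cell kind, strain label, days and animal differed together between the recipients and cannot be told apart. The strain of the donor cells is not given in the labels.

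The libraries kept 1807, 1576, 1354 and 1805 cells after filtering, in the order endogenous and donor-derived of the iBC recipient, then endogenous and donor-derived of the primary recipient. Values below follow this order unless stated. Cells were put into classes by marker genes that include no P450 member, and the classes are called basal-gated, secretory-gated, ciliated-gated and so on. Basal-gated cells numbered 735, 587, 569 and 979, secretory-gated cells 515, 456, 257 and 235, and ciliated-gated cells 357, 259, 203 and 163. Cells with basal markers and many secretory marker UMIs (unique molecular identifiers) formed a basal-secretory class of 136 and 205 cells in the primary recipient. A further 66 donor-derived cells of the primary recipient were hillock-gated and 67 of its endogenous cells were immune-gated. Ungated cells made up 7.25%, 15.1%, 4.73% and 7.31% of the libraries. In the 4 libraries, 62, 20, 183 and 279 cells with basal markers had between 250 and 1000 secretory marker UMIs per 10000, near the limit of 500 that parts basal from basal-secretory cells. No barcode was shared within a recipient, and 1 barcode was shared between the donor-derived iBC library and each primary library.

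The largest set of described members lay on chromosome 7 (GRCm38), where Cyp2s1, Cyp2b10, Cyp2a4, Cyp2a5 and Cyp2f2 lie between positions 25802475 and 27133660. Cyp2a4 and Cyp2a5, paralogues in this cluster with similar sequence, had different values in the same cells. The 250 bases before their start sites are shown for that reason, from the RefSeq promoter table of GRCm38.p6, 5′ to 3′ on the plus strand, with the bases that differ between both genes in capitals.
Cyp2a5, chr7:26835089-26835338: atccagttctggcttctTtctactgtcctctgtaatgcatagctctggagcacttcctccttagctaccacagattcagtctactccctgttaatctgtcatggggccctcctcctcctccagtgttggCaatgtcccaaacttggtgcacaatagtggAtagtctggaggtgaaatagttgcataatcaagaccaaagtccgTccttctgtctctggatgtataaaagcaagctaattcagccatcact
Cyp2a4, chr7:26306942-26307191: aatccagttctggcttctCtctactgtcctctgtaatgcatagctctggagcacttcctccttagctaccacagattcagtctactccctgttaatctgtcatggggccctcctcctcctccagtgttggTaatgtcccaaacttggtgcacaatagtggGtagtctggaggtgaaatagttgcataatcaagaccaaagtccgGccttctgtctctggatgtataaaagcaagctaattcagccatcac
Over 249 aligned bases 245 were identical (98.4%). The 4 differences, counted from 1 at the 5′ end of the Cyp2a5 window, with the Cyp2a5 base first, were T18C, C130T, A160G and T204G. Both windows hold the TATA box core TATAAA, searched on both strands, which 12.4% of all 32851 windows of this length hold.

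Cyp2b10 is shown as the third, since its values in secretory-gated cells of the iBC recipient went the other way from those of Cyp2a5. Capitals mark the core motif of the aryl hydrocarbon receptor, GCGTG, searched on both strands.
Cyp2b10, chr7:25897408-25897657: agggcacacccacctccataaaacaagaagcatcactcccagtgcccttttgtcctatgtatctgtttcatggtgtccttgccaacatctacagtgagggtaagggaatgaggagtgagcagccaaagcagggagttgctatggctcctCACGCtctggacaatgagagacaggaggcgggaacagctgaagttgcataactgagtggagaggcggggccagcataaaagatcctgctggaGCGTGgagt
This window, on the plus strand, holds the motif at 2 places. The motif was present in 28.2% of all windows and in 4 of the 17 described members that matched the table (Cyp20a1, Cyp2b10, Cyp4f16 and Cyp4v3). A match is a run of letters, not a measured site. These are reference sequences, and the letters in the 129 X1/S1 mice or the donor cells were not examined.

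Of the 94 members, 43 had no UMI in any library and a further 32 had UMIs but stayed under the limit, with 1053 UMIs together of 771854 for the whole family. Of the 49 members of xenobiotic type 6 were described and 26 had no UMI. Of the 26 fatty acid and eicosanoid members 7 were described, of the 6 cholesterol and bile acid members 4, and of the 3 retinoic acid members 1. None of the 6 steroid hormone members and none of the 3 vitamin D members reached the limit. Cyp1a1, which the aryl hydrocarbon receptor induces, had 5 UMIs in all libraries together, and Cyp1b1 had 32. Cyp2e1, the ethanol-oxidising enzyme of liver, had 15. The member just outside was Cyp2j9, at 9.99 CPM in basal-gated endogenous cells of the primary recipient, which reached 10 CPM only in sums of under 50 cells, on at most 5 UMIs. In the sums used, the members just inside were Cyp2a4 at 11.1, Cyp7b1 at 11.3 and Cyp8b1 at 14.1 CPM.

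P450 UMIs made up 0.682%, 0.271%, 0.863% and 0.803% of all UMIs in basal-gated cells. The shares were 0.879%, 0.874%, 1.23% and 1.43% in secretory-gated cells and 1.19%, 0.356%, 0.603% and 0.721% in ciliated-gated cells. Donor-derived iBC cells thus had the lowest share in the basal-gated and ciliated-gated classes. Immune-gated cells of the primary recipient, which should lack airway P450 RNA, had 0.0383%. Of the family's UMIs in basal-gated cells, Cyp2f2 made up 91.6%, 86.0%, 90.1% and 91.1%.

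**Figure D1:**
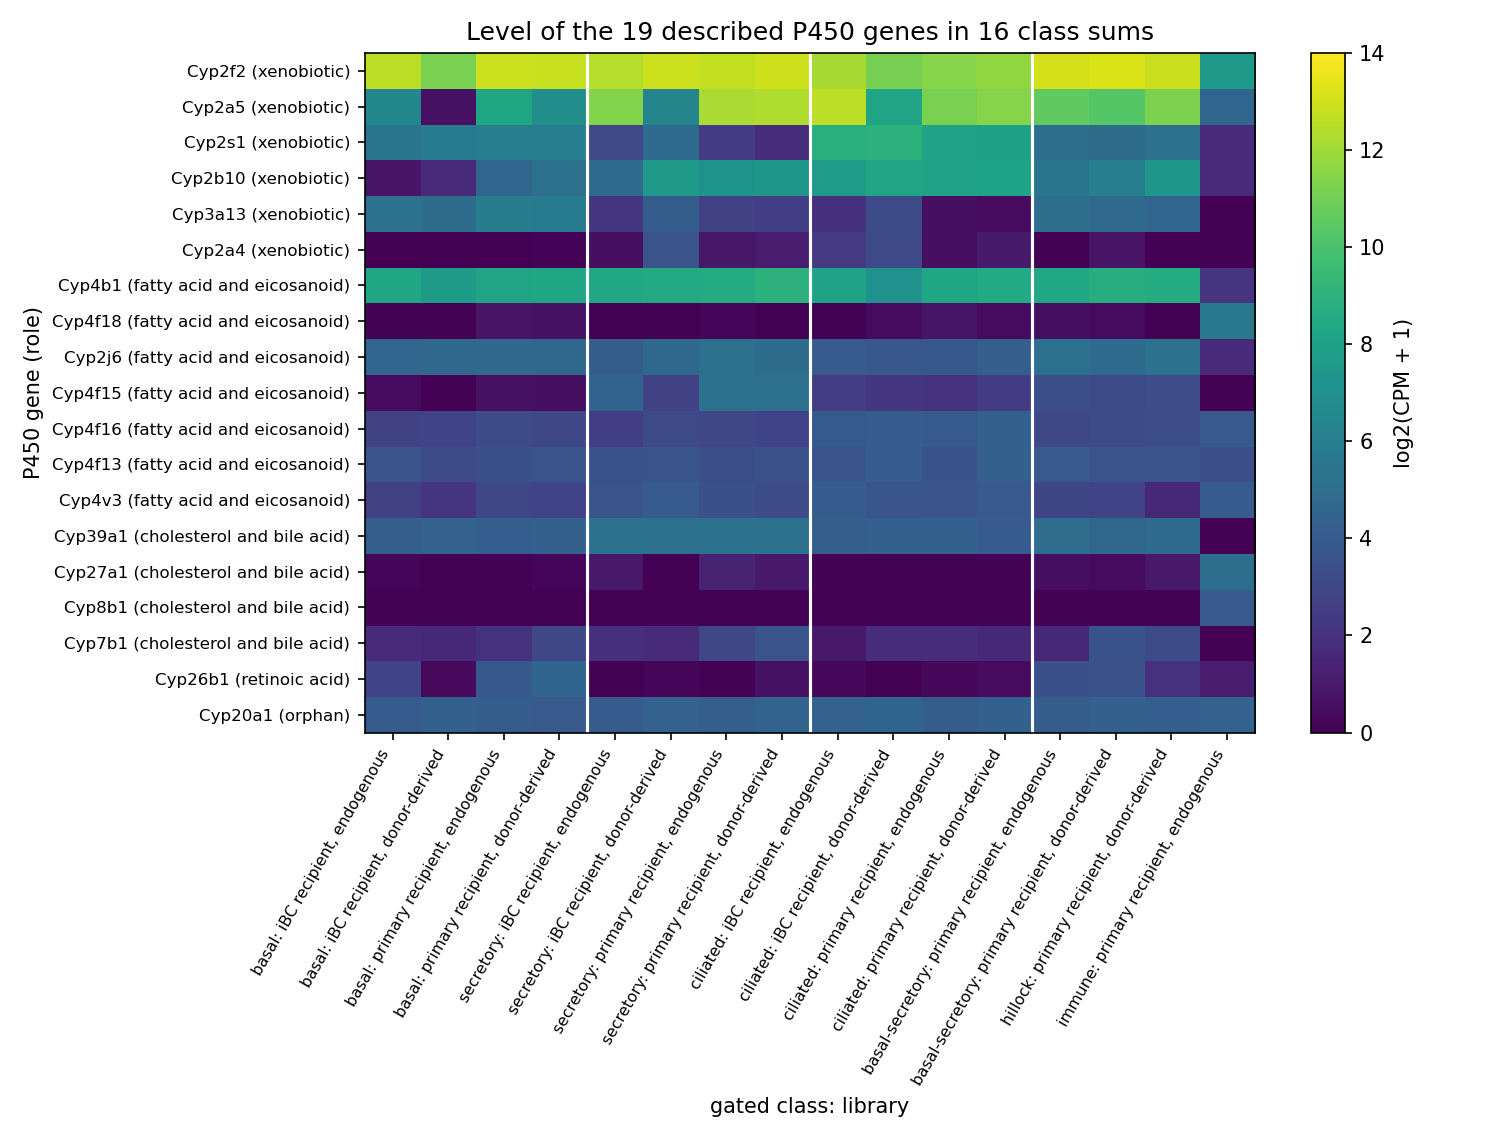
Level of the 19 described genes (rows, with role) in 16 class sums (columns, 1 library and gated class each, at least 50 cells), as log2(CPM + 1) by colour. Cyp2f2 was high in every epithelial sum, Cyp2a5 of donor-derived iBC cells was at 0.570 CPM in basal-gated cells and below the other 3 libraries in each class, and Cyp4f18, Cyp27a1 and Cyp8b1 were highest in the immune column, at 49.5, 31.8 and 14.1 CPM.

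Among the members that act on foreign compounds, Cyp2f2, the naphthalene-oxidising enzyme of mouse club cells, was at 6247, 2333, 7777 and 7317 CPM in basal-gated cells. In secretory-gated cells it was at 5640, 7914, 6770 and 8246 CPM and in ciliated-gated cells at 4636, 2201, 2804 and 3346 CPM. In immune-gated cells it was at 189.6 CPM, with a UMI in 32.8% of cells at a median of 11610 UMIs per cell. Every epithelial sum was thus at least 2201 CPM, and the lowest basal and ciliated values were those of donor-derived iBC cells. At 5000 UMIs per cell, 99.9%, 96.5%, 99.8% and 99.9% of basal-gated cells held a Cyp2f2 UMI, so its RNA was not limited to cells rich in secretory markers. Per 1000 UMIs of the 8 secretory markers, basal-gated cells held 683, 716, 578 and 590 Cyp2f2 UMIs and secretory-gated cells held 13.6, 27.9, 20.9 and 28.1. In immune-gated cells the ratio was 61.1.

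Cyp2a5, which oxidises coumarin and nicotine, was at 90.01, 0.570, 297 and 120 CPM in basal-gated cells. It was at 2657, 80.9, 4792 and 5151 CPM in secretory-gated cells and at 6188, 289, 2284 and 2838 CPM in ciliated-gated cells. Donor-derived iBC cells were the lowest of the 4 libraries in each of these classes. It was at 1559 and 1287 CPM in basal-secretory cells and at 2447 CPM in hillock-gated cells of the primary recipient, above the basal-gated cells there. In immune-gated cells it was at 22.4 CPM, with a UMI in 23.9% of cells. At 5000 UMIs per cell a Cyp2a5 UMI was found in 93.5%, 11.53%, 97.7% and 94.9% of secretory-gated cells and in 99.1%, 25.1%, 86.7% and 91.4% of ciliated-gated cells. Without thinning the ciliated shares were 99.4%, 34.4%, 93.1% and 93.25%.

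The few Cyp2a5 UMIs of the donor-derived iBC cells were unevenly spread over cells, as were those of basal-gated cells in the other libraries. The basal-gated values are given with the ratios below. Of 456 donor-derived secretory-gated iBC cells, 94 had any of the 619 Cyp2a5 UMIs. Of these, 9 cells with at least 10 per 10000 UMIs held 55.7% of the UMIs. Of 259 ciliated-gated cells, 89 had any of the 940 UMIs, and 11 such cells held 76.0%. In the endogenous library of the same mouse, 77.1% of secretory-gated and 96.1% of ciliated-gated cells were at that level. Of the 9 donor-derived secretory-gated cells 4 had a UMI of the EGFP reporter, and of the 11 ciliated-gated ones 5. Among all secretory-gated cells of that library 51.8% had one, against 0% of the endogenous ones. Clustering of all cells placed 14 basal-gated, 3 ciliated-gated and 0 secretory-gated donor-derived cells in clusters where at least 90% of the iBC recipient's cells were endogenous, and results are given below with and without them.

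**Figure D2:**
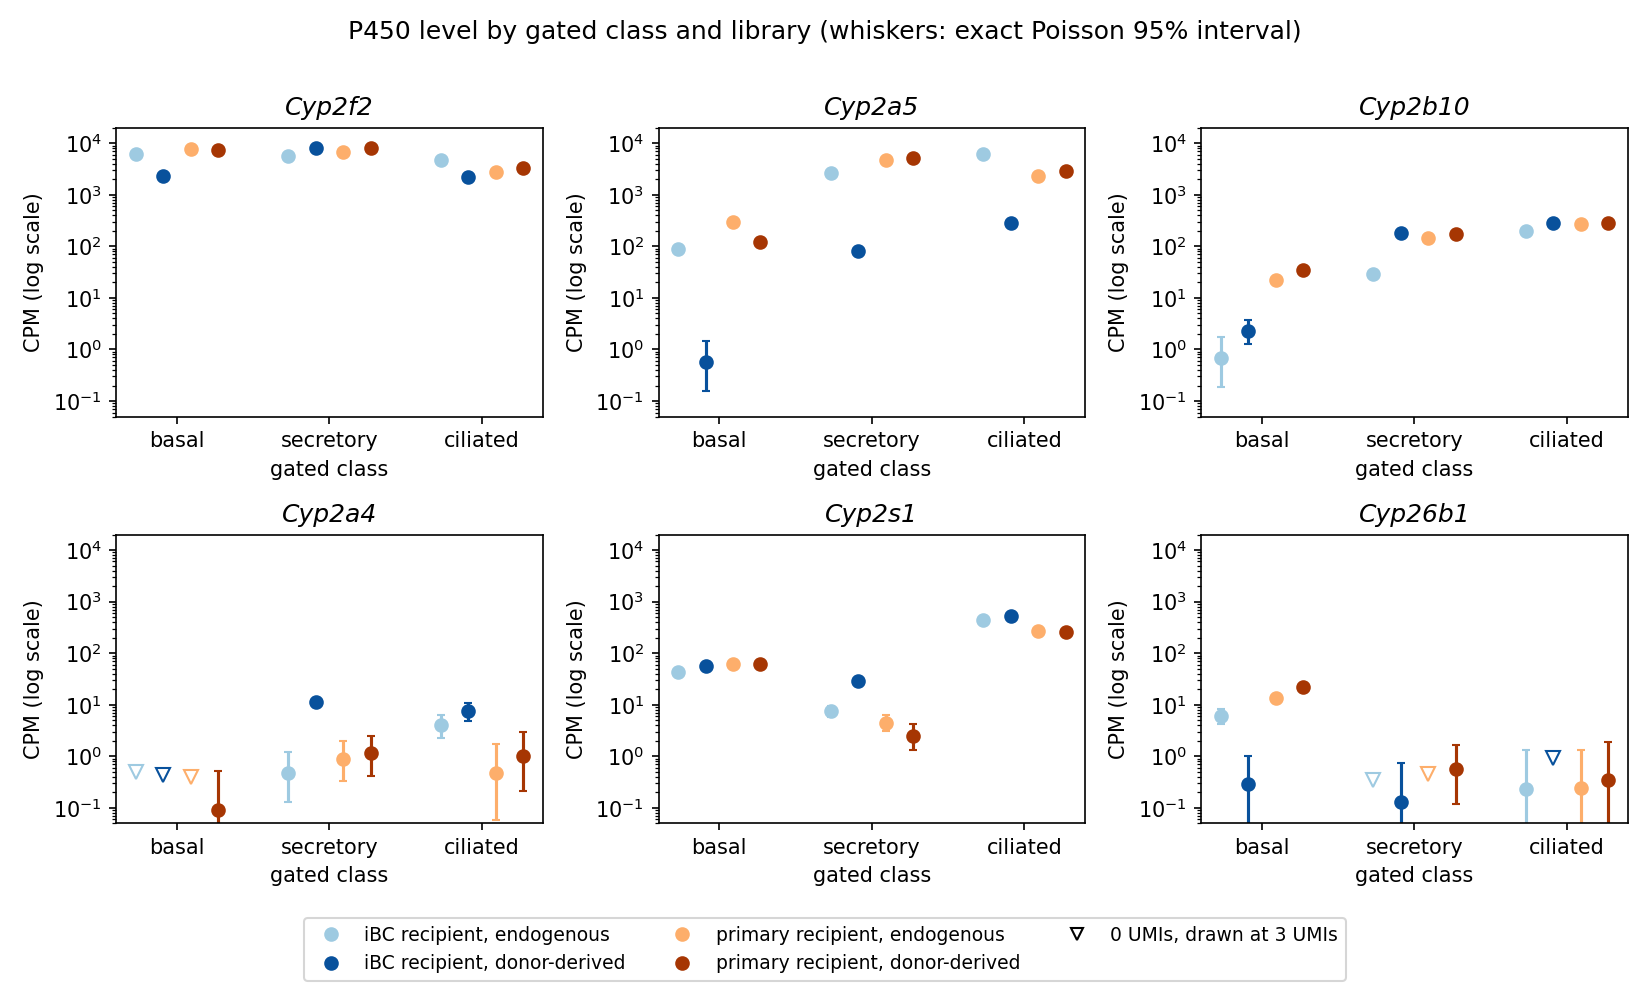
CPM on a log axis (vertical) of 6 P450 genes in basal-, secretory- and ciliated-gated cells (horizontal) of the 4 libraries (colours). Whiskers are exact Poisson 95% intervals and open triangles mark sums with 0 UMIs, drawn at 3 UMIs. Cyp2a5 of donor-derived iBC cells sits lowest in each class, while Cyp2b10 and Cyp2s1 of the same cells do not.

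Cyp2b10, the phenobarbital-inducible member, was at 0.674, 2.28, 22.7 and 35.0 CPM in basal-gated cells. It was at 29.2, 184, 144 and 171 CPM in secretory-gated cells and at 202, 290, 266 and 281 CPM in ciliated-gated cells. The low secretory value was that of the endogenous cells of the iBC recipient, and both iBC recipient libraries were low in basal-gated cells. Immune-gated cells held 2 UMIs. At 5000 UMIs per cell, 12.35%, 53.0%, 45.1% and 57.0% of secretory-gated cells had a Cyp2b10 UMI, and without thinning 26.6%, 74.1%, 86.4% and 88.9%.

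**Figure D3:**
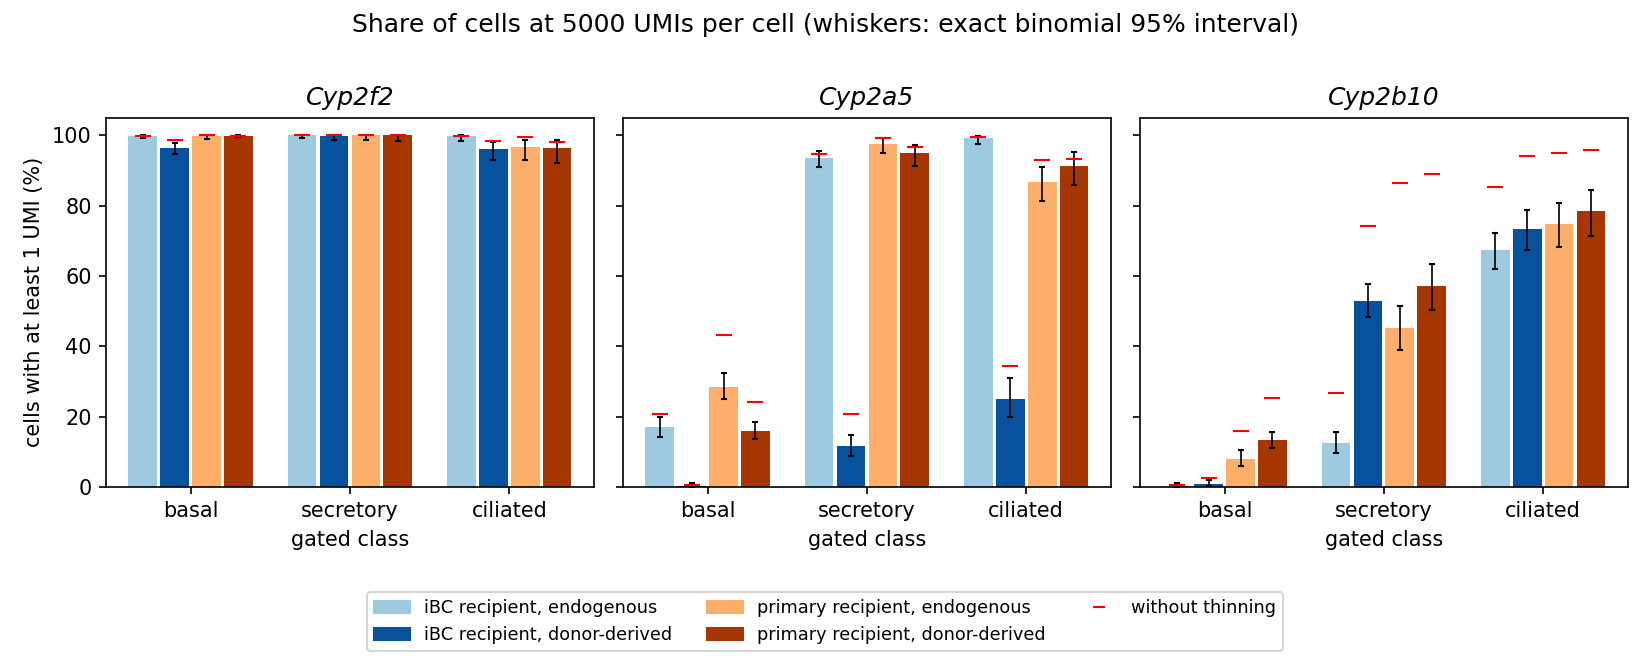
Share of cells with at least 1 UMI (vertical, %) of Cyp2f2, Cyp2a5 and Cyp2b10 in 3 gated classes (horizontal) after thinning each cell to 5000 UMIs, with exact binomial 95% whiskers and red marks for the unthinned share. Cyp2a5 was found in 25.1% of donor-derived ciliated-gated iBC cells and in 86.7% to 99.1% of the other libraries' ciliated-gated cells.

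Cyp2a4, the steroid-hydroxylating paralogue of Cyp2a5, was at 0.471, 11.1, 0.903 and 1.14 CPM in secretory-gated cells and at 3.97, 7.39, 0.478 and 1.02 CPM in ciliated-gated cells. The 85 UMIs behind the highest value came from 15 of 456 cells, 1 of which held 32.9%, and 6 of the 15 also had a Cyp2a5 UMI. Of the 50-base stretches in the last 500 bases of the Cyp2a4 transcript, 44.3% also occur in Cyp2a5 or a Cyp2a pseudogene, so its counts are uncertain. In the other direction 12.4% of those of Cyp2a5 occur in Cyp2a4. For Cyp2b10, 7.54% also occur in Cyp2b13.

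Cyp2s1, which is inducible by dioxin and acts on retinoids and eicosanoids, was at 43.2, 55.4, 61.4 and 61.6 CPM in basal-gated cells. It was at 7.42, 28.2, 4.52 and 2.48 CPM in secretory-gated and at 442, 518, 271 and 255 CPM in ciliated-gated cells. The ciliated values were the highest in every library and those of the iBC recipient lay above those of the primary recipient. It overlaps Gm26707 and Gm45226 on the opposite strand, as Cyp2f2 (Gm15883), Cyp2a4 (Gm42375) and Cyp4f18 (Zfp961) overlap 1 gene each. Whether counting used the strand is not given in the sources used here. Other described members overlap a gene on the same strand. They are Cyp20a1 (6030460B20Rik), Cyp7b1 (Gm23686), Cyp3a13 (Gm15502), Cyp4v3 (Gm45753) and Cyp39a1 (Gm25783).

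Cyp3a13, a member of the drug-oxidising 3a subfamily, was at 37.1, 29.9, 58.6 and 52.3 CPM in basal-gated cells, at 3.65, 16.7, 5.72 and 4.96 CPM in secretory-gated cells and at 2.80, 7.70, 0.478 and 0.340 CPM in ciliated-gated cells. It was highest in basal-gated cells of each library.

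Among the fatty acid and eicosanoid members, Cyp4b1, which hydroxylates fatty acids and activates the lung toxin ipomeanol, was at 299, 199.5, 293 and 310.5 CPM in basal-gated cells. It was at 323, 373, 397.5 and 514 CPM in secretory-gated and at 266, 134, 298 and 372.5 CPM in ciliated-gated cells, against 3.53 CPM in immune-gated cells. The low values in the basal-gated and ciliated-gated classes were those of donor-derived iBC cells. Cyp4f15 was at 20.9, 5.62, 35.8 and 33.95 CPM in secretory-gated cells and below 5 CPM in basal-gated and ciliated-gated cells of every library. Cyp2j6, of an arachidonic acid epoxygenase subfamily, ranged from 12.9 to 34.6 CPM over the 3 classes and 4 libraries. Cyp4f13 ranged from 8.12 to 18.4 CPM, Cyp4f16 from 4.95 to 19.7 CPM and Cyp4v3 from 3.42 to 16.1 CPM. Cyp4f16 was highest in ciliated-gated cells of each library, at 14.5, 15.7, 14.8 and 19.7 CPM. Cyp4f18, which acts on leukotriene B4 in myeloid cells, was at 49.5 CPM in immune-gated cells and at most 0.718 CPM in basal-, secretory- and ciliated-gated cells.

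Of the sterol members, Cyp39a1, an oxysterol hydroxylase, differed little between libraries. It was at 35.7, 34.5, 35.8 and 37.6 CPM in secretory-gated cells, and from 15.3 to 19.8 CPM in basal-gated and ciliated-gated cells. Cyp7b1, the other oxysterol hydroxylase described, was at 2.83, 2.22, 6.77 and 11.3 CPM in secretory-gated cells. Cyp27a1, the sterol 27-hydroxylase, was at 31.8 CPM in immune-gated cells and at most 1.66 CPM in the 3 epithelial classes. Cyp8b1, the sterol 12-alpha-hydroxylase of bile acid synthesis, rested on 12 UMIs (14.1 CPM) in immune-gated cells and had 0 UMIs in the 12 basal-, secretory- and ciliated-gated sums.

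Cyp26b1, which breaks down retinoic acid, was found mainly in basal-gated cells, at 6.07, 0.285, 13.4 and 22.1 CPM. The value of donor-derived iBC cells rested on 2 UMIs of 1 cell, and without the cells in endogenous clusters it was 0 UMIs. At most 3 UMIs were found in any secretory- or ciliated-gated sum. Cyp20a1, an orphan enzyme with no settled substrate, ranged from 13.9 to 21.9 CPM over all 3 classes and 4 libraries and was at 20.02 CPM in immune-gated cells.

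Within each library, classes were compared by CPM ratio, and a member or gene was called at 2-fold or more when it had at least 10 CPM and 10 UMIs in either sum. Cyp2b10 and Cyp2a5 were called higher in secretory-gated than in basal-gated cells of all 4 libraries, 2 of the 9 members that could be called in each, against 2.19% of all genes. The Cyp2a5 ratios were 29.5, 142, 16.1 and 42.8, and those of Cyp2b10 were 43.3, 80.9, 6.35 and 4.89. In basal-gated cells of the iBC recipient Cyp2b10 rested on 4 UMIs (endogenous) and 16 UMIs (donor-derived), and Cyp2a5 of the donor-derived ones on 4 UMIs. No member was called lower in all 4, against 12.9% of genes. Cyp2s1, Cyp2b10 and Cyp2a5 were called higher in ciliated-gated than in basal-gated cells of all 4 libraries (3 of 12, against 17.2% of genes) and Cyp3a13 lower (1 of 12, against 9.31%). Cyp2s1 and Cyp4f16 were called higher in ciliated-gated than in secretory-gated cells (2 of 11, against 25.8% of genes), with Cyp2s1 ratios of 59.5, 18.3, 59.97 and 103, and 0 members were called lower, against 2.64%. The Cyp4f16 call was lost with TMM (trimmed mean of M-values) scaling, with classes from clusters and with a mean over cells. The median log2 ratio of all genes was not 0 between these classes, at -0.68, -0.50, -0.56 and -0.55 for secretory over basal and 0.77, 0.50, 0.64 and 0.57 for ciliated over secretory. The order of Cyp2a5 between ciliated-gated and secretory-gated cells differed between recipients, with ciliated over secretory ratios of 2.33, 3.58, 0.477 and 0.551. That difference was not tested.

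The iBC recipient allows donor-derived cells to be compared with endogenous cells of the same trachea. In basal-gated cells Cyp2a5 was 158-fold lower (95% interval 61.3 to 582) in donor-derived cells, 4 UMIs against 534, and Cyp2f2 was 2.68-fold lower. All intervals cover counting error only and take UMIs as independent, though Cyp2a5 UMIs were gathered in few cells. Of 735 endogenous cells 153 had a Cyp2a5 UMI, and 16 with at least 10 per 10000 UMIs held 42.7%. Of 587 donor-derived cells 3 had one. Cyp2a5 and Cyp2f2 were 2 of the 9 members that could be called, against 4.12% of all genes lower. No member was higher, against 5.34%. In the same sums the secretory markers were at 9143 CPM in endogenous and 3258 CPM in donor-derived cells (8 of 8 markers with UMIs in both). Among them the secretoglobin Scgb1a1 went the other way from the sum, at 1206 and 1919 CPM, and Scgb3a1 was at 303.4 and 9.976 CPM. Markers of alveolar type 2 cells were at 93.55 CPM (4 of 5, Napsa at 0) and 243.3 CPM (5 of 5). In secretory-gated cells the order of the sums was reversed, at 871.2 CPM in endogenous and 526.8 CPM in donor-derived cells. The endogenous sum came from 2 of 5 markers (Sftpc, Lamp3 and Napsa at 0) and the donor-derived one from 5 of 5. In ciliated-gated cells these markers were at 14.24 CPM (5 of 5) and 20.94 CPM (4 of 5). The part of either list in the result was not tested. Among basal-gated cells with fewer than 100 secretory marker UMIs per 10000, Cyp2f2 was 2.82-fold lower and Cyp2a5 was at 0.465 CPM (3 UMIs) in donor-derived against 64.7 CPM in endogenous cells. Without the donor-derived cells in endogenous clusters, 1 Cyp2a5 UMI remained in 573 cells (0.146 CPM), and Cyp2f2 was 2.77-fold lower.

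In secretory-gated cells members moved in both directions, among them Cyp2a5, Cyp2b10, Cyp2s1 and Cyp2a4 of chromosome 7. Cyp2a5 was 32.8-fold lower (30.3 to 35.6) in donor-derived cells and Cyp4f15 3.71-fold lower. Cyp2b10 was 6.31-fold higher (5.51 to 7.25), Cyp3a13 4.58-fold (3.07 to 7.02), Cyp2s1 3.80-fold (2.86 to 5.12) and Cyp2a4 23.6-fold (8.88 to 88.5) higher, the last from 4 against 85 UMIs. Thus 4 of the 13 members that could be called were higher, against 9.89% of genes, and 2 were lower, against 3.99%. Of the 4, Cyp2a4 is among the described members only through this donor-derived sum, at 11.1 CPM. Its call is therefore no separate observation. The median log2 ratio of all genes was 0.34 here, and the log2 ratio of Cyp2f2 was 0.49. The 8 secretory markers were at 416400 CPM in endogenous and 283700 CPM in donor-derived secretory-gated cells. Within this list the directions differed, with Scgb1a1 at 242600 and 263500 CPM and Scgb3a1 at 94000 and 5104 CPM. The part of the list in these ratios was not tested.

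In ciliated-gated cells Cyp2a5 was 21.4-fold lower (20.03 to 22.8) and Cyp2f2 2.11-fold lower in donor-derived cells, 2 of 11 members against 5.33% of genes lower, with 0 higher against 5.13%. With classes taken from clusters the Cyp2f2 ratio no longer reached 2-fold. Cyp4b1 was 1.98-fold lower, and it passed the limit with TMM scaling, with a mean over cells and, at 2.05-fold, without the cells in clusters of the other library. Without those cells Cyp2a5 was 28.8-fold lower. Cyp2b10 at a ratio of 1.44 and Cyp2s1 at 1.17 did not reach the limit. Secretory markers were at 11010 CPM in endogenous and 6126 CPM in donor-derived cells in these sums. Of these markers Scgb1a1 was at 1022 and 4496 CPM and Scgb3a1 at 1209 and 76.67 CPM. The part of the list was not tested.

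In the primary recipient the same comparison gave fewer calls. In basal-gated cells Cyp2a5 was 2.47-fold lower (2.31 to 2.65) in donor-derived cells, 1 of 11 members against 0.766% of all genes, and none was higher, against 0.302%. The Cyp2a5 UMIs were gathered in few cells, which the interval does not cover. Cells with at least 10 Cyp2a5 UMIs per 10000 were 42 of 569 endogenous and 29 of 979 donor-derived ones. They held 73.6% and 62.2% of the Cyp2a5 UMIs. Cyp2b10 was at a ratio of 1.54, and at 2.04 among basal-gated cells with fewer than 100 secretory marker UMIs per 10000. The secretory markers were at 13460 and 12400 CPM in these sums and Scgb3a1, a secretoglobin of secretory cells, at 185.8 and 44.0 CPM. In secretory-gated cells 0 of 10 members were higher (0.579% of genes) and 0 lower (0.731%), and in ciliated-gated cells 0 of 11 were higher (0.603%) and 0 lower (0.469%). Cyp2a5 was at ratios of 1.07 (1.06 to 1.09) and 1.24 (1.21 to 1.28), Cyp2b10 at 1.19 and 1.06, and Cyp2f2 at 1.22 and 1.19 in these 2 classes. In the basal-secretory class Cyp7b1 was 5.11-fold higher (1.98 to 16.8), 33 against 5 UMIs, 1 of 12 members against 0.635% of genes, and none was lower, against 0.994%.

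**Figure D4:**
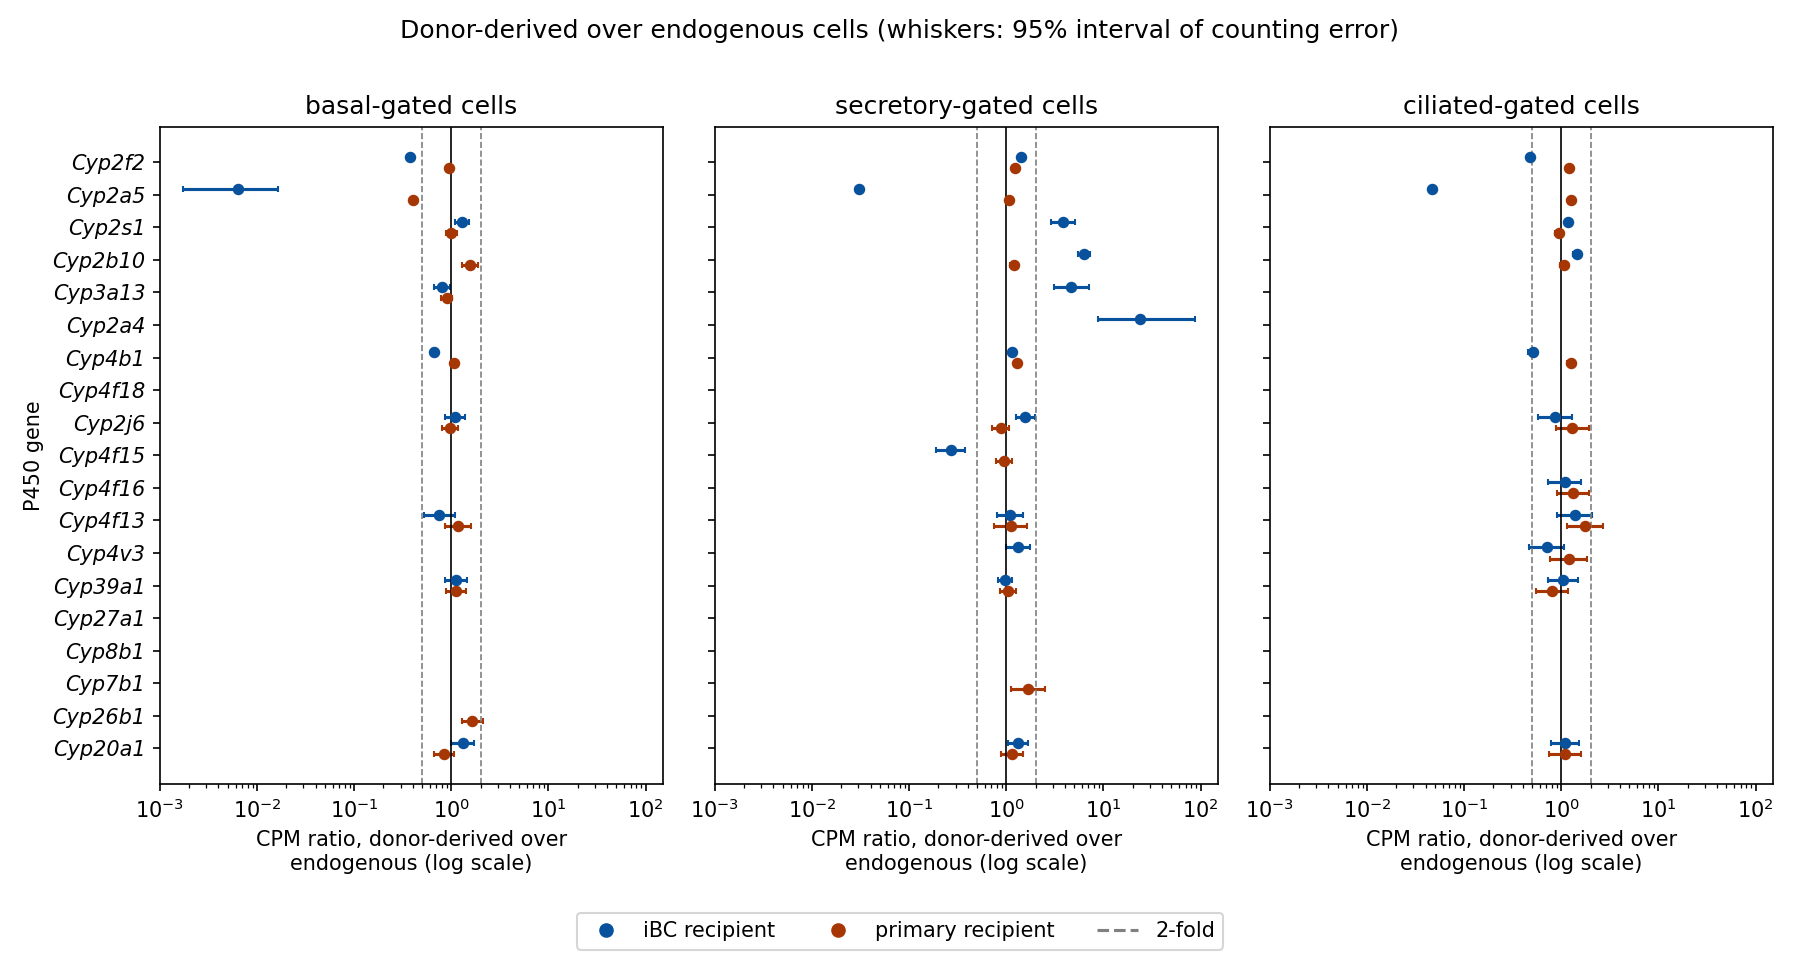
CPM ratio of donor-derived over endogenous cells (horizontal, log axis) of the described genes (vertical) in 3 gated classes, for the iBC recipient (blue) and the primary recipient (brown), with 95% intervals of counting error and dashed lines at 2-fold. Genes below 10 CPM or 10 UMIs in both sums have no point. Cyp2a5 of the iBC recipient lies far to the left in each class, and Cyp2b10, Cyp2s1, Cyp3a13 and Cyp2a4 lie to the right in secretory-gated cells.

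The endogenous cells of both recipients, which share their libraries with the comparisons above, also differed. In basal-gated cells Cyp2b10 was 33.6-fold lower (12.9 to 125) in the iBC than in the primary recipient, from 4 against 168 UMIs. Cyp2a5 was 3.30-fold lower and Cyp26b1 2.20-fold lower in the iBC recipient. These were 3 of 11 members, against 2.71% of genes, and none was higher, against 1.98%. With classes from clusters the Cyp2a5 ratio no longer reached 2-fold. In these basal-gated sums secretory markers were at 9143 CPM in the iBC and 13460 CPM in the primary recipient, and alveolar type 2 markers at 93.55 and 38.46 CPM (4 of 5 in both, Napsa at 0). In secretory-gated cells Cyp2b10 was 4.93-fold lower and Cyp2j6 2.11-fold lower (2 of 10, against 4.98%), with 0 higher against 1.86%, and with TMM scaling the Cyp2j6 call was lost. In ciliated-gated cells Cyp2a5 was 2.71-fold higher (2.65 to 2.77), 1 of 11 against 3.46%, and none was lower, against 4.71%. Secretory markers were at 416400 and 323500 CPM in the secretory-gated and at 11010 and 20510 CPM in the ciliated-gated sums. Of these markers Scgb1a1 was at 1206 and 437 CPM in basal-gated, 242600 and 71490 CPM in secretory-gated and 1022 and 559.3 CPM in ciliated-gated sums. In the secretory-gated sums alveolar type 2 markers were at 871.2 CPM (2 of 5, with Sftpc, Lamp3 and Napsa at 0) and 402.6 CPM (5 of 5). The higher sum thus came from fewer markers. In the ciliated-gated sums they were at 14.24 and 89.47 CPM (5 of 5 in both). The part of these markers in the ratios was not tested.

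Between the donor-derived libraries, Cyp2a5 was 211-fold (82.2 to 776), 63.65-fold and 9.81-fold lower in basal-, secretory- and ciliated-gated cells of the iBC recipient. In basal-gated cells Cyp26b1 (77.4-fold, 21.2 to 643, from 2 against 242 UMIs), Cyp2b10 (15.3-fold) and Cyp2f2 (3.14-fold) were lower too, 4 of 11 members against 6.81% of genes, with 0 higher against 6.5%. In secretory-gated cells Cyp7b1 (5.06-fold) and Cyp4f15 (6.04-fold) were the other lower members, 3 of 14 against 7.1%. Cyp2s1 (11.4-fold), Cyp2a4 (9.71-fold) and Cyp3a13 (3.37-fold) were higher, 3 of 14 against 8.52%. Cyp2a4 is again among the described members only through the iBC sum used here. In ciliated-gated cells Cyp4b1 was 2.77-fold lower, making 2 of 11 lower against 7.21%. Cyp2s1 was 2.03-fold higher, 1 of 11 against 7.07%, a call lost with TMM scaling, with classes from clusters and with a mean over cells. In the iBC and the primary recipient, the donor-derived secretory markers were at 3258 and 12400 CPM in basal-gated, 283700 and 293300 CPM in secretory-gated and 6126 and 25220 CPM in ciliated-gated cells (8 of 8 in each). Of these markers Scgb1a1 was at 1919 and 269.7 CPM in basal-gated, 263500 and 71930 CPM in secretory-gated and 4496 and 965.8 CPM in ciliated-gated cells. Alveolar type 2 markers were at 243.3 CPM (5 of 5) and 9.295 CPM (4 of 5, Lamp3 at 0) in the basal-gated sums. They were at 526.8 CPM (5 of 5) and 285.4 CPM (2 of 5, with Sftpc, Lamp3 and Napsa at 0) in the secretory-gated sums. In the ciliated-gated sums they were at 20.94 CPM (4 of 5) and 59.47 CPM (3 of 5). The part of these markers in the ratios was not tested.

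Partner genes were taken from a list of 28 genes for electron transfer, haem supply, epoxide hydrolysis and receptors that regulate P450 genes, of which 18 to 21 could be called in a comparison. In donor-derived against endogenous cells of the iBC recipient 1 of 20 was higher in basal-gated cells (5.34% of all genes), 3 of 20 in secretory-gated cells (9.89%) and 1 of 21 in ciliated-gated cells (5.13%). In ciliated-gated cells 1 of 21 was lower (5.33%) and none in the other two classes (4.12% and 3.99%). Counts of 1 of 20 or 21 genes are near these shares. The aryl hydrocarbon receptor gene Ahr was at 98.3 CPM in endogenous and 239.5 CPM in donor-derived secretory-gated cells (2.44-fold) and at 43.7 and 62.2 CPM in those of the primary recipient. The retinoic acid receptor gene Rarb was 2.19-fold, 2.56-fold and 2.003-fold higher in basal-, secretory- and ciliated-gated donor-derived iBC cells. Fdx1, adrenodoxin of the mitochondrial P450 enzymes, was 2.24-fold higher in the secretory-gated ones, and Ppara, a fatty acid-sensing receptor gene, was 2.78-fold lower in the ciliated-gated ones. In the primary recipient 0 partner genes were called in any class. In ciliated-gated endogenous cells, 3 of 20 partner genes were higher in the iBC recipient (3.46% of all genes) and 0 lower (4.71%). The higher ones were Alas1 (haem synthesis, 3.15-fold), Cyb5a (cytochrome b5, 2.54-fold) and Ephx1 (epoxide hydrolase, 2.34-fold). Ahr was 2.05-fold and 2.25-fold higher in basal- and secretory-gated endogenous cells of the iBC recipient. It was 1 of 21 partner genes (1.98% of all genes) and 1 of 19 (1.86%), with 0 lower (2.71% and 4.98%). Between donor-derived libraries, 2 of 21 partner genes were higher in basal-gated cells of the iBC recipient (6.5% of all genes). In secretory-gated cells 2 of 20 were higher (8.52%) and in ciliated-gated cells 2 of 21 (7.07%). In ciliated-gated cells 1 of 21 was lower (7.21%), and none in the other classes (6.81% and 7.1%). These counts are near the shares of all genes. Ahr was 3.43-fold, 3.85-fold and 2.25-fold higher in the iBC recipient in basal-, secretory- and ciliated-gated cells. Rarb was 2.65-fold and 4.001-fold higher in the basal- and secretory-gated ones, and in the ciliated-gated ones Alas1 was 2.48-fold higher and Ppara 3.99-fold lower.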

How the data were processed

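Single-cell RNA was measured on the 10x Chromium system in 4 libraries, 1 per group. The submitters' processing notes name build GRCm38 and the tools STARsolo, Cell Ranger and Seurat, without roles. The deposited files hold UMI counts per gene and barcode, already reduced to cells, with totals of 21813234, 21504563, 24808125 and 26625123 UMIs and medians of 9298, 11987, 14175 and 11796 UMIs per barcode.

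Barcodes with fewer than 500 genes or over 20% mitochondrial UMIs and doublets called by Scrublet (scanpy 1.11.5; 44, 9, 15 and 14 barcodes) were removed. Gates asked for at least 5 of 8 markers and 20 marker UMIs per 10000 (basal, ciliated), or 500 secretory marker UMIs per 10000. Their limits were set after the marker values were seen, without P450 values. In the basal-gated class the median ciliated markers were at 0.858 to 1.48 UMIs per 10000 and the median secretory markers at 11.7 to 79.7. Sums over the cells of a class in a library were converted to CPM. A call asked for a CPM ratio of 2-fold or more, and for 10 UMIs and 10 CPM in 1 of both sums. CPM values carry exact Poisson, ratios exact conditional binomial and shares exact Clopper-Pearson 95% intervals, all for counting error only. Cells were thinned to 5000 UMIs for shares, which left out 0 to 37 cells per class. Positions came from GENCODE vM21, in which all 94 members were found. The calculation was tested on simulated data. Members with at least 10 CPM in any sum over a library or over at least 50 cells were described, and partner genes were named where past 2-fold. Alternatives were a stricter gate, classes from Leiden clusters (leidenalg 0.10.2), doublets kept, TMM, a mean over cells, no minimum, 50 CPM and 1.5-fold, and 2 chosen after seeing the data. Members and lists were chosen with earlier results of these data known.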

Additional observations from a re-analysis of the deposited data

Results flagged for a closer look

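The ratio of donor-derived to endogenous cells lay above 1 in one recipient and below 1 in the other, with both intervals of counting error clear of 1, for 5 pairs of member and class in which both recipients reached 10 CPM and 10 UMIs. Each group had 1 library, and the difference between recipients was not tested. The share of all genes that meet this rule is not given, so the 5 pairs are no result about the family. For Cyp2a5 the secretory-gated ratio was 0.0305 (iBC recipient) and 1.07 (primary recipient), and 0.0468 and 1.24 in ciliated-gated cells. For Cyp4b1 it was 0.667 and 1.06 in basal-gated cells and 0.505 and 1.25 in ciliated-gated cells. For Cyp2f2 it was 0.475 and 1.19 in ciliated-gated cells.

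Some P450 features have symbols that end in a letter and so lay outside the members. Of these, Cyp4a12b, a fatty acid hydroxylase gene, had 1214, 3, 2087 and 2226 UMIs in the 4 libraries, in the order used above, the highest being 2226. Its near-identical paralogue Cyp4a12a had at most 5 UMIs in a library, and counts of both are uncertain for that reason.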

How the results depend on the processing

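No paired analysis was possible because each group had 1 library, and for the same reason no replicate could be left out. Counts below are of member and class pairs over basal-, secretory- and ciliated-gated cells. Shares of all genes under the changed settings are not given. The counts in this section thus show only how calls depend on the setting and are no result about the members. Without a minimum of CPM and UMIs, the counts higher and lower became 24 and 23 (from 4 and 6) for donor-derived over endogenous cells of the iBC recipient. They became 17 and 14 (from 0 and 1) in the primary recipient, 15 and 24 (from 1 and 5) between endogenous libraries and 20 and 32 (from 4 and 9) between donor-derived libraries, since sums of few UMIs then count. At 50 CPM or more they fell to 1 higher in the iBC recipient, 2 lower between endogenous libraries, and 1 higher and 5 lower between donor-derived libraries. At 1.5-fold they were 4 higher in the primary recipient, and 3 higher and 8 lower between endogenous libraries. In the primary recipient 1 was higher, Cyp2b10 in basal-gated cells, with classes from clusters and with basal cells of few secretory markers, and the cause was not tested.

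For members called in all 4 libraries between classes, secretory over basal gave 5, 1 and 2 higher without a minimum, at 50 CPM and in the values reported. Lower there were 3 without a minimum, 1 with the stricter gate and 2 at 1.5-fold, against 0. Ciliated over basal gave 8 higher and 5 lower without a minimum, 0 lower at 50 CPM and 5 higher at 1.5-fold. Ciliated over secretory gave 4 higher without a minimum, and 1 at 50 CPM, with classes from clusters, with TMM and with a mean over cells. Lower there were 3 with TMM and 1 at 1.5-fold, against 0. Thinning to 5000 UMIs moved the Cyp2f2 share of donor-derived basal-gated iBC cells to 96.53%, and the Cyp2a5 shares of ciliated-gated cells to 25.1% (donor-derived, iBC) and 86.7% (endogenous, primary). Of all single member ratios recomputed, 1278 stayed within their interval of counting error, 211 moved out of it and 0 called ones changed direction. With 1 library per group, no depth gives the spread between animals. Levels of a few CPM rested on few UMIs, and a library at 0 UMIs allows 3.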
